A study of Sus scrofa with 4 samples.

Results

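Decorin, biglycan, fibromodulin, lumican, asporin, osteoglycin, PRELP and osteoadherin are small leucine-rich proteoglycans of the extracellular matrix. Dermatopontin is a small matrix protein that binds decorin. Their genes are DCN, BGN, FMOD, LUM, ASPN, OGN, PRELP, OMD and DPT. They were followed in fibroblasts grown from pig skin wounds. A gene was taken where the array's annotation gave its symbol alone to a probeset, the set of short probes that reads 1 transcript, and where a gene had several probesets the brightest was used. Of the 9 genes, 6 had such a probeset, 7 probesets in all, out of 6765 named genes on the array. FMOD, OGN and OMD had none and are not analysed here.

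The cells came from deep and from shallow wounds on the backs of 2 Duroc pigs, a breed used as a model of fibrotic skin scarring. Wounds were biopsied 20 weeks after they were made, and total RNA was taken from confluent cultures of dermal fibroblasts. Each pig gave 1 deep and 1 shallow array, so there were 2 arrays at each depth and no culture from unwounded skin among the 4 analysed. Both groups were grown in the same serum-containing medium, and no agent or genetic change is named for either. The question is how matrix gene expression in fibroblasts from deep wounds differs from that in fibroblasts from shallow wounds of the same animal. The titles give each array's partner by a sample number. Reading these numbers in the order of listing makes the arrays of pig 1 and pig 2, and the crossed pairing is given where it matters.

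Small leucine-rich proteoglycans have a curved core of leucine-rich repeats that docks on collagen fibrils and sets their thickness and spacing. Decorin and biglycan carry chondroitin or dermatan sulfate chains, lumican and fibromodulin carry keratan sulfate, and asporin carries an aspartate-rich stretch in place of a chain. Several of them also bind TGF-beta, the main profibrotic growth factor, and decorin and dermatopontin both take part in its handling in the matrix.

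All values are MAS5 signals, the intensity units of the array software, scaled so that each array had the same trimmed mean of 250.1. The arrays still differed in their quality controls. Geometric mean signals of the 9 hybridization controls, added in a fixed amount, were 1390 and 3406 on the deep arrays of pig 1 and pig 2, against 1003 and 1174 on the shallow arrays. Actin probesets, a check of RNA integrity, had a 3' over 5' ratio of 3.28 and 6.10 on the deep arrays, against 1.96 and 2.41 on the shallow arrays. Signals at the 99th percentile reached 5619 and 6886 on the deep arrays, against 4732 and 5142 on the shallow arrays. Fibroblast markers were present on every array, with 8 of 8 measured above the controls for absent transcripts. Their summed signal was 27900 and 43022 on the deep arrays, against 21810 and 21735 on the shallow arrays. PDPN alone went the other way, at 2883 and 2740 on the deep arrays, against 3757 and 3241 on the shallow arrays. Of 9 measured epithelial markers, the summed signal was 312 and 187 on the deep arrays, against 8372 and 220 on the shallow arrays, so the shallow array of pig 1 stood apart. Of 4 measured smooth muscle and pericyte markers, which cultured fibroblasts also express, the summed signal was 4675 and 3342 on the deep arrays, against 637 and 1125 on the shallow arrays, and their part in the differences below was not tested. Most of this sum was ACTG2, at 4269 and 2914 on the deep arrays, against 492 and 717 on the shallow arrays. CNN1 read 193 and 154 on the deep arrays, against 79.3 and 62.2 on the shallow arrays. DES read 25.6 and 55.9 on the deep arrays, against 15.6 and 9.67 on the shallow arrays, the last under the highest absent control. Only RGS5 overlapped between depths, at 187 and 218 on the deep arrays, against 50.7 and 336 on the shallow arrays. Of 3 leukocyte, 2 adipocyte and 1 melanocyte markers measured, 0 were above the absent controls on every array. The endothelial (6 measured), Schwann cell (2) and tendon and cartilage (2) lists had 1 such gene each. The endothelial gene was PECAM1, at 223 and 281 on the deep arrays, against 601 and 152 on the shallow arrays. S100B and COL2A1 were the other 2. The array reads RNA from a whole culture, in which fewer cells expressing a gene and less of its RNA per cell cannot be told apart.

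All 6 measured genes read higher on both deep arrays than on both shallow arrays, and 1 of them, PRELP, rose past the threshold (limma with the pig as block, adjusted p under 0.05 over 14399 probesets). Among the 5272 named genes tested, 0.303% rose by this test, and in 23.7% the signals of the depths were separated in this direction. Each of the 6 was higher in deep in both pigs, as were 29.9% of genes tested. At least 2-fold higher in each pig were 3 of the 6 (ASPN, DPT and PRELP), against 2.26% of all genes tested. An unadjusted p under 0.05 in the same limma fit was reached by 6 of 6, against 7.40% of genes tested that were higher in deep at that level. ASPN is in the counts of separation, of both pigs, of 2-fold differences and of unadjusted p. It passed the filter on dim probesets only through its deep arrays, so its place in these counts is no support for a difference. The genes were chosen with earlier results of these data known, so these counts describe the 6 genes and are no independent test of the group. With 2 arrays against 2, an exact permutation test of a single gene that ignores the pairs cannot give a two-sided p below 0.333. Permuting depth within each pig leaves fewer arrangements, so the limit is then higher. Whether the arrays stand for separate cultures beyond the 2 animals is not stated, so p-values measure only the spread between these arrays.

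**Figure D1:**
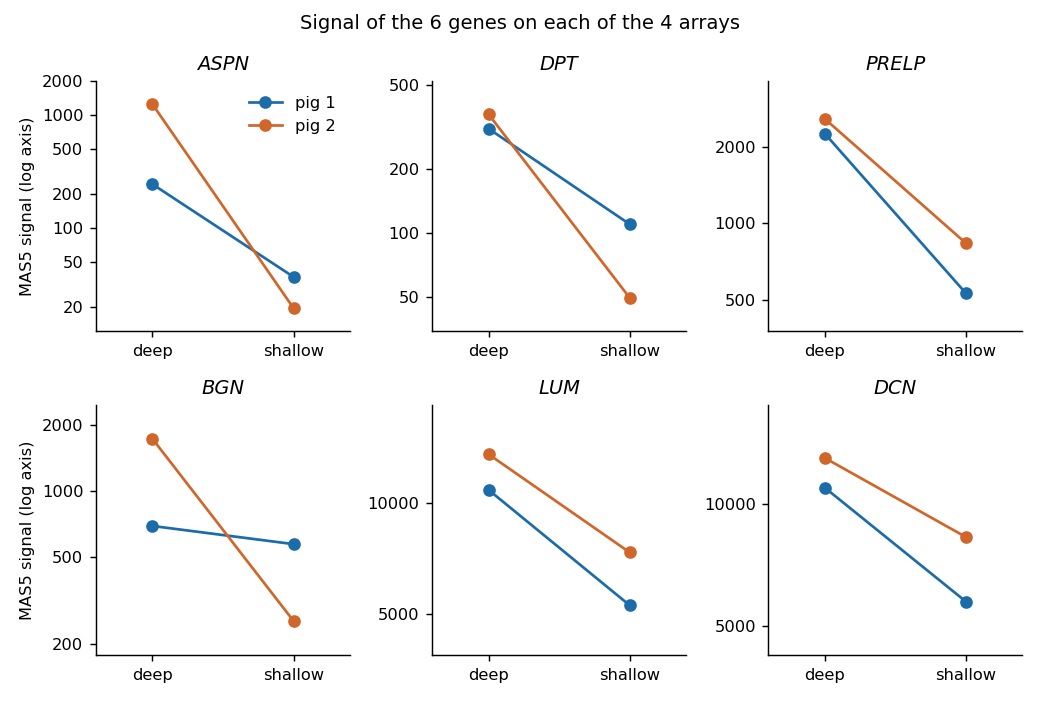
MAS5 signal (y axes, log scale) of the 6 genes on the deep (left) and shallow (right) arrays, with 1 line for each pig. Every line runs down to the shallow array; the lines cross for ASPN, DPT and BGN and run side by side for PRELP, LUM and DCN.

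Decorin, the most abundant of these proteoglycans in dermis, limits fibril thickness and binds TGF-beta. The bright DCN probeset read 10980.2 and 13007 on the deep arrays of pig 1 and pig 2, against 5740.0 and 8290.4 on the shallow arrays. The lowest deep array was 1.32-fold above the highest shallow array, and within a pig the deep array was higher by 1.91-fold in pig 1 and 1.57-fold in pig 2. The log2 difference was 0.79 ± 0.30 (SE; limma, adjusted p = 0.294), so DCN did not pass the threshold. A second DCN probeset read between 0.145 and 4.17 on the 4 arrays, below the absent controls on each, and it gives no fold.

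Biglycan, the closest relative of decorin, can act as a danger signal to Toll-like receptors once it is released from the matrix. BGN read 691 and 1735 on the deep arrays, against 571 and 254 on the shallow arrays. The groups did not overlap, but in pig 1 the deep array was only 1.21-fold above the shallow one, whereas in pig 2 it was 6.83-fold above. The log2 difference was 1.52 ± 0.52 (limma, adjusted p = 0.247), which is not past the threshold. Leaving out the deep array of pig 2 gave 0.86, and leaving out that of pig 1 gave 2.19. With the actin ratio as covariate it was 0.54 ± 0.95, lower than with any 1 array left out. The actin ratio was higher on both deep arrays than on both shallow arrays. A fit on 4 arrays therefore cannot separate it well from depth, here or for the genes and lists below.

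Asporin, which binds collagen and TGF-beta and is known for its part in cartilage and in fibrotic stroma, had the largest difference of the 6. ASPN read 246 and 1257 on the deep arrays, against 37.2 and 19.7 on the shallow arrays. Both shallow signals were close to the absent controls, at 2.51 and 1.45 times the highest of these on the array, while the deep signals were 11.3 and 40.7 times as high. The shallow geometric mean of 27.1 lay just under the filter on dim probesets, so ASPN passed that filter through its deep arrays. ASPN was 6.61-fold higher in deep in pig 1 and 63.8-fold higher in pig 2. The log2 difference was 4.36 ± 0.67 (limma, adjusted p = 0.0527), just short of the threshold, and only 2 of the 5272 genes tested had a larger one. Leaving out the deep array of pig 2 gave 3.18, and leaving out that of pig 1 gave 5.54. With the actin ratio as covariate the difference was 2.21 ± 1.03.

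Lumican, a keratan sulfate proteoglycan of cornea and dermis, also spaces collagen fibrils. LUM read 10873 and 13585 on the deep arrays, against 5284 and 7355 on the shallow arrays. Its deep arrays were 2.06-fold higher in pig 1 and 1.85-fold higher in pig 2, with no overlap between depths. The log2 difference of 0.96 ± 0.29 did not pass (limma, adjusted p = 0.207). LUM and DCN are next to each other in the pig gene order of assembly Sscrofa11.1, and their signals, like those of PRELP, ran in the same order over the 4 arrays. That order, from the shallow array of pig 1 to the deep array of pig 2, was also the order of the hybridization controls and of the actin ratio, whose part in the differences was not tested beyond the fit with the actin ratio. With the actin ratio as covariate the log2 differences were 0.35 ± 0.44 for DCN and 0.46 ± 0.42 for LUM. The ratio goes with depth on these arrays, and both SEs were wider than the 0.30 and 0.29 of the reported fit. With quantile normalization, which gives every array the same distribution, the differences were 0.19 for DCN and 0.36 for LUM.

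PRELP, a proteoglycan with an arginine- and proline-rich end that binds heparan sulfate, links collagen to basement membranes. It alone among the 6 passed the threshold. PRELP read 2245 and 2566 on the deep arrays, against 532 and 836 on the shallow arrays. The deep arrays differed from each other by 1.14-fold, and the lower of them was 2.69-fold above the higher shallow array. PRELP averaged 2406 ± 227 in deep cultures and 684 ± 215 in shallow cultures (SD, n = 2 each), a log2 difference of 1.85 ± 0.27 (limma, adjusted p = 0.0469). The rise was 4.22-fold in pig 1 and 3.07-fold in pig 2. The call was lost under 7 of the 12 alternatives. The adjusted p (limma) was 0.121 without the pig block, 0.0684 with median centring, 0.150 without the trend, 0.210 without the filter and 1.00 with the actin ratio as covariate, and leaving out either deep array also lost it. It was 0.0193 with crossed pairs, 0.0394 with quantile normalization and 0.0392 with the floor of 16. The difference itself stayed between 1.42 and 2.17 on the log2 scale over the 12 alternatives.

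Dermatopontin is no proteoglycan. It is a tyrosine-rich protein that binds decorin, fibronectin and collagen and helps fibrils to assemble. DPT read 311 and 363 on the deep arrays, against 110 and 49.3 on the shallow arrays. The deep arrays were close to each other, at a ratio of 1.17, and the shallow arrays were not. Within a pig the deep array was 2.83-fold higher in pig 1 and 7.36-fold higher in pig 2. The log2 difference was 2.19 ± 0.40 (limma, adjusted p = 0.0771), short of the threshold. It was 2.36 ± 0.84 with the actin ratio as covariate and 1.61 to 2.77 with 1 array left out.

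Ordered by log2 difference, the genes ran from ASPN through DPT, PRELP, BGN and LUM to DCN. Each gene's 95% interval overlapped that of its neighbours in this order, and the differences between neighbours were not tested. ASPN had a larger difference than DPT in both pigs. The interval of ASPN ran from 2.81 to 5.91. It overlapped the interval of DPT, 1.27 to 3.11, and lay above that of PRELP, 1.21 to 2.48. The intervals of LUM (0.29 to 1.64) and DCN (0.11 to 1.48) covered nearly the same range, and that of BGN (0.33 to 2.72) was wide.

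**Figure D2:**
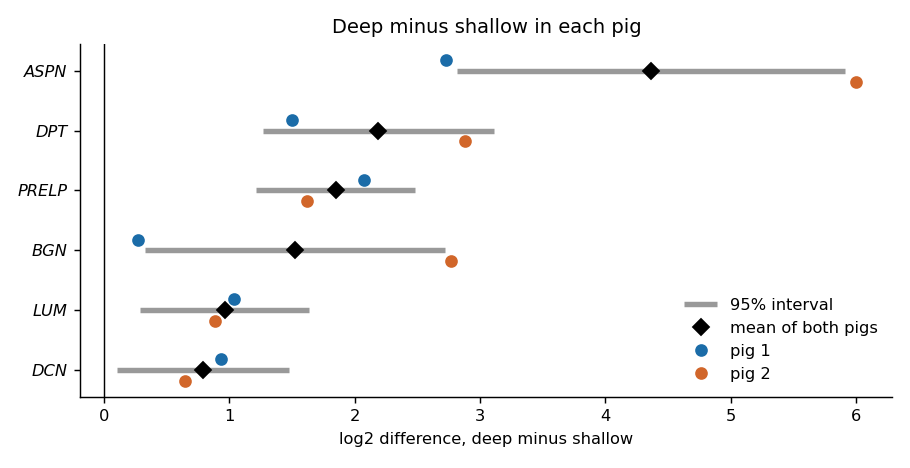
Log2 difference of signal, deep minus shallow (x axis), for the 6 genes (rows). Circles are the pigs, diamonds the mean of both and grey bars the 95% interval of the limma fit; ASPN lies at 4.36, and the circles of BGN lie far apart at 0.28 in pig 1 and 2.77 in pig 2.

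The 6 genes showed 2 patterns between the animals, described here after their values were seen. On the deep arrays, each gene was higher in pig 2 than in pig 1, by log2 differences between 0.19 for PRELP and 2.35 for ASPN. On the shallow arrays, DCN, LUM and PRELP were again higher in pig 2, at log2 differences of 0.53, 0.48 and 0.65. BGN, DPT and ASPN were lower there in pig 2 than in pig 1, at -1.17, -1.16 and -0.92. As a result the difference between depths was larger in pig 1 for DCN, LUM and PRELP and larger in pig 2 for BGN, DPT and ASPN. The shallow array of pig 1, where DCN, LUM and PRELP were lowest, is the array with high epithelial markers, and their part in this was not tested. Without that array the log2 differences were 0.53 for DCN, 0.72 for LUM, 1.52 for PRELP, 2.11 for BGN, 2.77 for DPT and 4.82 for ASPN.

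**Figure D3:**
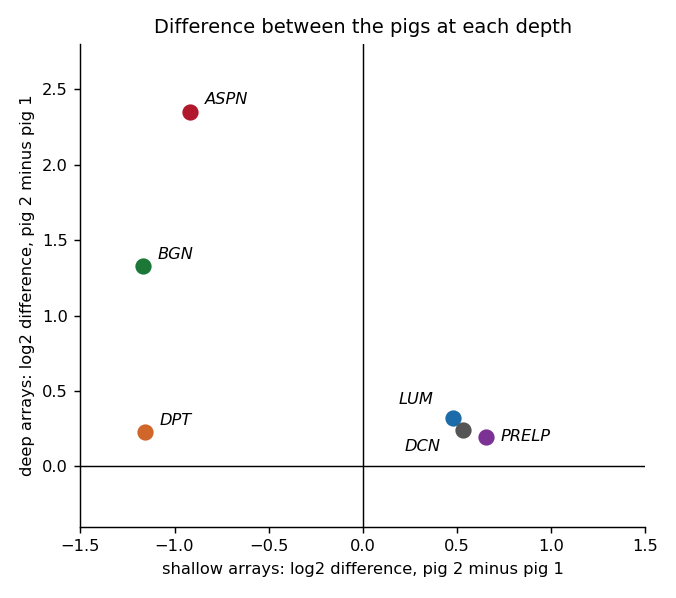
Log2 difference between the animals, pig 2 minus pig 1, on the shallow arrays (x axis) and on the deep arrays (y axis), 1 point for each gene. DCN, LUM and PRELP sit together on the right, and ASPN, BGN and DPT on the left, with ASPN highest at 2.35.

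The pairing of arrays changes how even the differences look. With each shallow array set against the deep array of the other pig, BGN differed by 1.44 and 1.60 on the log2 scale, in place of 0.28 and 2.77. ASPN differed by 3.64 and 5.08 with the crossed pairs, and DPT by 2.66 and 1.72. DCN became less even, at 0.41 and 1.18, and so did LUM, at 0.56 and 1.36, and PRELP, at 1.43 and 2.27. With crossed pairs as the block 4 of the 6 genes passed (limma), with adjusted p = 0.0018 for ASPN, 0.0183 for DPT, 0.0193 for PRELP and 0.0235 for BGN. More probesets passed over the whole array as well, 202 of 14399 with crossed pairs against 49 with the pairs as read. The mean differences are the same under either pairing, and the values do not tell which is right.

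The likeness of the 6 genes was measured as the distance between 2 genes' log2 signals over the 4 arrays, each centred on its mean, so that a distance of 0 means the same profile. DCN and LUM were the closest pair, at 0.18. Among the 5271 other genes LUM was the 39th nearest to DCN, and DCN the 18th nearest to LUM. LUM and PRELP followed at 0.90, and BGN and DPT were at 1.03, where DPT was the 56th nearest to BGN and BGN the 21st nearest to DPT. ASPN was at least 2.65 from every other gene of the 6, since its range over the arrays was far wider. A profile over 4 arrays is short, and these distances describe it only.

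The genes nearest in profile to each of the 6 were taken by the same distance. For DCN they were MECOM, a transcription factor, and CTSZ, a lysosomal protease, at 0.057 and 0.073. For LUM they were IGF1R, the receptor of insulin-like growth factor I, and CUX1, a transcription factor, at 0.085 and 0.10. PRELP was nearest to C1H14orf37 at 0.16 and to COL8A1, a short-chain collagen, at 0.17, and COL8A1 itself read 1563 and 1687 on the deep arrays, against 363 and 501 on the shallow arrays. BGN was nearest to THBS3, a thrombospondin, at 0.25 and to EMB, an adhesion protein, at 0.33. On the shallow array of pig 2, EMB read 9.89, under the highest absent control of 13.6, and THBS3 read 15.6, close to it. DPT was nearest to THY1, a surface glycoprotein of fibroblasts, at 0.35. THY1 read 803 and 1172 on the deep arrays, against 397 and 152 on the shallow arrays. The next nearest to DPT was PDGFRL, a relative of the PDGF receptors, at 0.68. PDGFRL was also close to the absent controls on the shallow arrays, at 22.9 and 16.6. ASPN had no close neighbour. The nearest were ALDH1A1, which makes retinoic acid, at 0.81 and SERPINA6, corticosteroid-binding globulin, at 1.45. ALDH1A1 read 1036 and 3114 on the deep arrays, against 188 and 58.3 on the shallow arrays.

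The other genes of the family and of its pathway were taken from lists drawn up from knowledge of the pathway, with earlier results of the data known. Of the 41 genes tested in these lists, 0 rose and 0 fell past the threshold (limma; background 0.303% and 0.0948% of genes), while 13 were higher and 0 lower at an unadjusted p under 0.05 (background 7.40% and 8.06%). Of 9 further leucine-rich genes only TSKU, tsukushi, was tested, at 1186 and 1049 on the deep arrays, against 859 and 1039 on the shallow arrays (log2 difference 0.24). OPTC, opticin, which lies beside PRELP in the gene order, was below the filter on dim probesets. The median log2 difference was 1.69 over the 6 genes (1.27 in pig 1 and 2.19 in pig 2) and -0.04 over all genes tested.

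Partners of these proteins in the fibril had the next highest median. Among 9 tested partners of collagen fibrils and dermatopontin the median log2 difference was 0.99, and 8 were separated with deep above shallow (23.7% of all genes were). The median was 0.47 with the actin ratio as covariate. COL6A3, a chain of the collagen VI that decorin binds, read 2301 and 4285 on the deep arrays, against 878 and 1329 on the shallow arrays (limma, adjusted p = 0.0720). The log2 differences of COL5A2, a fibril-nucleating collagen, and FBN1, fibrillin of the elastic microfibrils, were 1.27 and 1.24. FN1, fibronectin, differed by 0.92 and COL1A2 by 0.99. COL6A2, another collagen VI chain, overlapped between depths, at 260 and 214 on the deep arrays, against 141 and 224 on the shallow arrays (log2 difference 0.41). None of them reached an adjusted p of 0.05.

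The large and cell surface proteoglycans had a median of 0.76 over 4 tested genes. VCAN, the hyaluronan-binding versican, differed by 1.13, SDC2, a syndecan, by 1.03 and SDC1 by -0.68. SDC1 read 718 on the shallow array of pig 1, the array with high epithelial markers, and 150.2 on that of pig 2, with 249 and 169 on the deep arrays.

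The enzymes that build the sulfated chains showed no comparable difference, with a median of 0.13 over 8 tested genes, 2 separated with deep above shallow and 2 with deep below (background 23.7% and 28.4%). The largest were UST, a uronyl sulfotransferase, at 0.62, DSE, which turns chondroitin into dermatan sulfate, at 0.56 and B4GALT4, a galactosyltransferase of keratan sulfate, at 0.49. With the actin ratio as covariate the median was 0.98 for the 6 genes and -0.17 for the chain-building list, against 1.69 and 0.13 without it. The difference between the 2 groups of genes was not tested.

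TGF-beta ligands and receptors had a median of -0.20 over 5 tested genes, which was 0.47 in pig 1 and -0.63 in pig 2. Its sign turned with the array left out, at 0.14 when either array of pig 2 was dropped, -0.54 when the deep array of pig 1 was dropped and -0.42 when the shallow one was. TGFB1, the ligand that decorin and asporin bind, read 88.7 and 91.2 on the deep arrays, against 202 and 120.0 on the shallow arrays, with no overlap (log2 difference -0.79, limma, adjusted p = 0.386). BMP4 differed by 0.51 and TGFBR1 by -0.22. Receptors bound by free decorin, biglycan and lumican had a median of 0.33 over 5 genes. Leaving out the deep array of pig 2 gave -0.10. IGF1R differed by 0.93 in both pigs, EGFR by 0.41 and TLR4 by -0.70, and on the deep array of pig 2 the TLR4 signal was under the limit set by the absent controls.

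The proteases that cut these proteins and their TIMP inhibitors had a median of 0.38 over 9 genes, which was -0.04 with the actin ratio as covariate. MMP3, stromelysin, which cuts decorin, read 4081 and 12553 on the deep arrays, against 2772 and 953 on the shallow arrays (log2 difference 2.14 ± 0.63, limma, adjusted p = 0.191). TIMP2 differed by 1.43 ± 0.28 and MMP2, a gelatinase, by 1.25 ± 0.26, with adjusted p = 0.0854 and 0.0968. MMP2 was higher by nearly the same amount in the 2 pigs, at 1.24 and 1.25. BMP1, which trims the propeptide of biglycan and procollagens, differed by 0.38. MMP13 differed by -0.38 (-1.25 in pig 1 and 0.50 in pig 2) and TIMP3 by -0.37 (0.54 in pig 1 and -1.29 in pig 2). The other tested genes of the list were higher in deep on average.

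**Figure D4:**
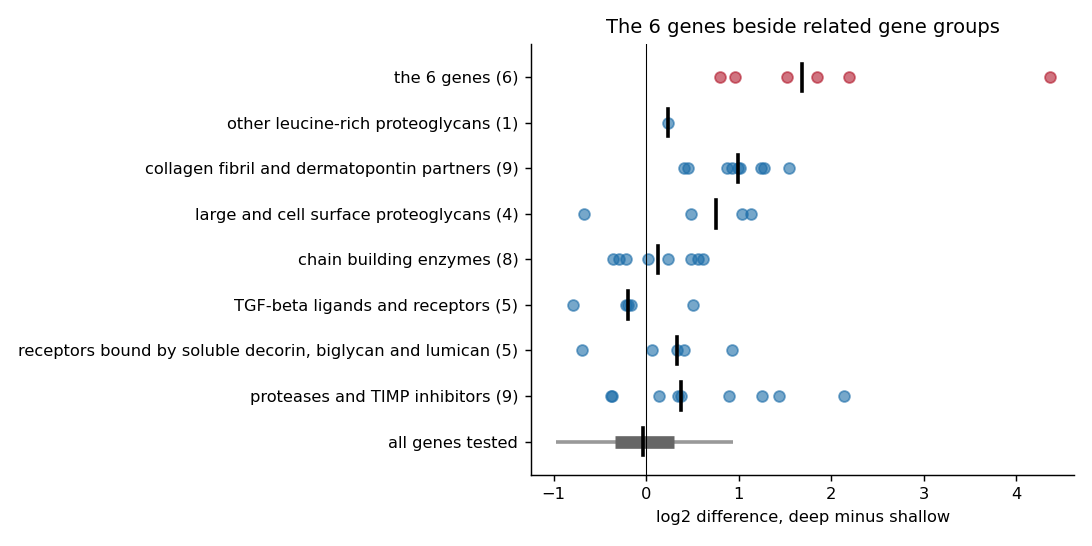
Log2 difference, deep minus shallow (x axis), of the 6 genes and of the related gene lists (rows, number of tested genes in brackets). Points are genes and black ticks medians; the bottom row gives all 5272 genes, with the 25th to 75th percentile as the thick bar and the 5th to 95th as the thin bar, which ends at 0.94 below the tick of the 6 genes at 1.69.

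All 6 differences were above 0 under each of the 12 alternatives. Most of these could not turn the sign: those that change only the block, the filter, the floor or the trend leave the difference as it is, and with both deep arrays above both shallow arrays leaving out 1 array cannot reverse it. Median centring shifts every gene by the same amount, and it took the smallest difference, that of DCN, from 0.79 to 0.86. Quantile normalization and the actin ratio as covariate could have turned a sign. DCN and LUM had their smallest differences under quantile normalization, and ASPN and BGN theirs with the actin ratio as covariate. PRELP and DPT moved least in proportion.

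**Figure D5:**
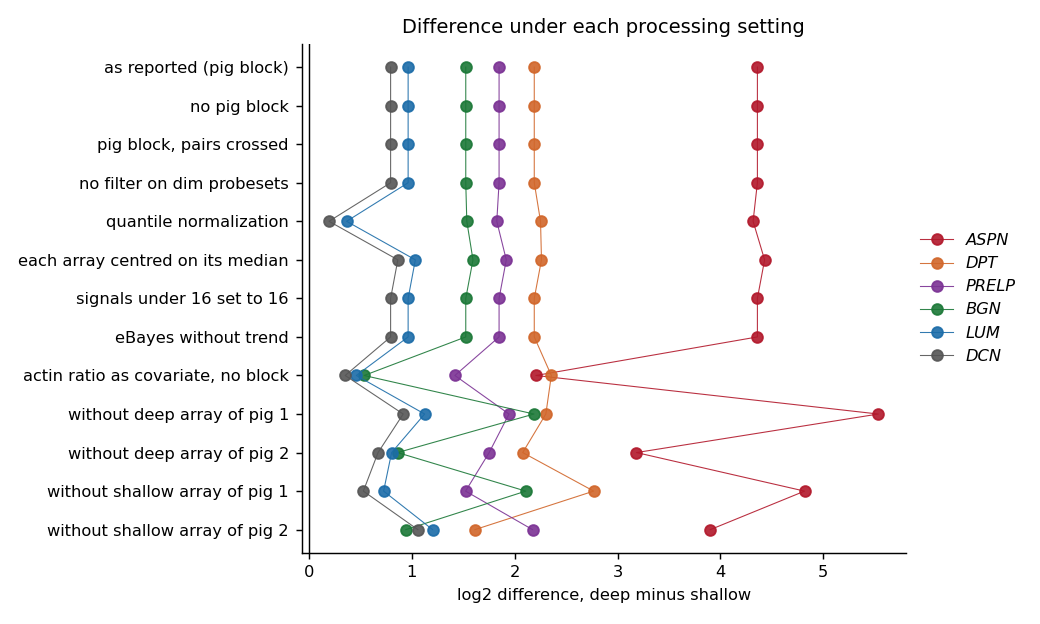
Log2 difference, deep minus shallow (x axis), of the 6 genes (colours) under the reported setting (top) and 12 alternatives (rows). All points lie to the right of 0; DCN is lowest under quantile normalization at 0.19, and ASPN spans 2.21 to 5.54.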

How the data were processed

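Expression was measured on 4 porcine Affymetrix arrays. The deposited values are signal intensities on a linear scale, 1 per probeset and array. The submitters' processing notes name MAS5 and GCOS 1.0. Their trimmed mean (top and bottom 2% left out) was 250.1 on each array. The scaling target and detection calls are not given in the sources used here. Precision is limited by the number of arrays, which have no read depth.

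After removal of 124 control probesets, signals under 1 were set to 1 (2547 of 95996 values), and log2 was taken. The filter kept 14399 probesets with a mean reaching the 40th percentile (signal 27.1). By the annotation 10069 probesets had 1 symbol, 198 had several and 13732 are unnamed. The depths were compared in limma 3.58.1 (R 4.3.3; lmFit, eBayes with trend), with the pig as a block, adjusted by Benjamini-Hochberg over all 14399. The block leaves 1 residual degree of freedom, to which the moderation added 6.88. The pairing comes from the titles and the series' design, and deviations of same-pig arrays correlated at -0.01. Absent controls were 23 probesets for Tag and Trpn sequences, and the highest on each array was the limit. The 6 genes and the lists were chosen with earlier results of these data known. From each list the text names genes past the threshold, then the largest differences up to 3. It also names the 2 genes nearest in profile to each member. COL1A2, FN1, COL6A2, BMP1, MMP13, TIMP3, SDC1 with its arrays and OPTC were added after their values were seen. No genome build is given for the table, so gene order comes from RefSeq's Sscrofa11.1 and no coordinates are printed.

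Alternatives were no block, crossed pairs, no filter, quantile normalization, median centring, a floor of 16, no trend, the actin ratio as covariate and leaving out each array.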

Additional observations from a re-analysis of the deposited data

Results flagged for a closer look

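Signals outside the gene probesets were higher on the deep arrays than on both shallow arrays. The 28S ribosomal RNA probesets had geometric mean signals of 3388 and 7467 on the deep arrays of pig 1 and pig 2, against 1350 and 1830 on the shallow arrays. The hybridization controls read 1390 and 3406 on the deep arrays, against 1003 and 1174 on the shallow arrays. The actin 3' to 5' ratio was 3.28 and 6.10 on the deep arrays, against 1.96 and 2.41 on the shallow arrays.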

How the results depend on the processing

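The 49 probesets past the threshold and the 1 gene of the 6 among them depended on the setting (limma throughout). Without the pig block, the fit without a replicate block, 0 probesets and 0 of the 6 genes passed, with 1885 probesets and 6 of the 6 at an unadjusted p under 0.05. With crossed pairs 202 and 4 passed. Without the filter 0 and 0 passed (2246 and 5 at an unadjusted p under 0.05), with quantile normalization 93 and 2, and with each array centred on its median 5 and 0 (6 of the 6 unadjusted). With signals under 16 set to 16, 70 probesets and 2 of the 6 passed, and without the trend 3 and 0 (6 of the 6 unadjusted). With the actin ratio as covariate 0 and 0 passed, with 283 probesets and 2 of the 6 at an unadjusted p under 0.05. Leaving out 1 array, with no block and the lone array assumed to vary like the other depth, gave 0 to 1597 probesets and 0 to 4 of the 6. PRELP kept its call under 5 of the 12 alternatives and lost it under 7. The second DCN probeset gave no value, being below the absent controls. Signal near those controls limits the ASPN fold.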
